A study of Mus musculus with 12 samples.

Results

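Mitochondrial ribosomal protein genes encode the proteins of the ribosome inside mitochondria. They were taken as every gene of the count table whose symbol is Mrpl or Mrps followed by a number and at most 1 letter, with a count above 0 in at least 1 library. This gave 76 genes of 24584 with counts, 47 Mrpl genes named for the large subunit and 29 Mrps genes named for the small subunit. Of the 76, 75 passed the filter on low counts and are among the 13692 genes tested, and Mrpl36 did not pass. Their levels were not used to choose them. Dap3, Ptcd3, Chchd1, Aurkaip1, Gadd45gip1 and Ict1, which encode mitoribosomal proteins under other symbols, are described as a separate list.

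RNA-seq counts were available from regulatory T cells (Tregs), the CD4 T cells that restrain immune responses, sorted as CD4+CD25hiCD127lo singlets from mesenteric lymph nodes of untreated SAMP mice, a line with spontaneous ileitis. The design crossed sex with Esr2, the gene of estrogen receptor beta (ERb), to ask how Tregs of each sex differ when the receptor is missing from the whole animal. Each of 4 titled groups had 3 libraries: WT male and WT female from strain SAMP/YitFC-WT, and KO male and KO female from strain SAMP/YitFC-ERb-KO. The labels give no age, do not say which part of Esr2 the KO allele lacks, and do not say whether the 3 libraries of a group are 3 mice. The titles number the WT male libraries 1, 2 and 2; the second titled 2 is called WT male 3 here, and whether both came from 1 mouse is not stated. With these 2 summed into 1 library, 0 members passed in any comparison. A p-value here therefore covers the spread among libraries, which may be technical.

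The mitochondrial ribosome translates a small set of messages carried on mitochondrial DNA, all of them core subunits of the respiratory chain and ATP synthase. Its RNA comes from mitochondrial DNA, whereas every protein is encoded in the nucleus, made in the cytosol and imported. Some proteins have counterparts in bacterial ribosomes and others were added during the evolution of mitochondria. In Tregs, respiration supports suppressive function and stability, so the capacity to make respiratory chain subunits is a feature of the cell type.

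Total counts were 10.2 to 16.7 M per library, and the shallowest was KO male 3. Foxp3, the lineage factor of Tregs, averaged 755 ± 122 CPM (counts scaled to library size, SD, n = 12) and Cd4 607 ± 78.7 CPM. The labels did not hold for every library. Xist and Y-linked counts were opposite to the titled sex in WT female 2, KO male 1, KO male 2 and KO female 1. Esr2 was at most 0.895 CPM in WT male 1, 2 and 3, WT female 1, KO male 1 and KO male 2, and between 8.05 and 12.3 CPM in the other 6, so it did not follow the titled genotype either. Every group below is the group of the titles, and each direction between sexes or genotypes rests on them. Summed markers of B cells were 183 to 426 CPM in KO-titled and 47.5 to 242 CPM in WT-titled libraries, and those of dendritic cells 689 to 1639 and 254 to 814 CPM. Macrophage and monocyte markers summed to 152 to 376 and 21.2 to 307 CPM. Neutrophil and mast cell markers summed to 10.3 to 55.5 CPM in KO-titled and 0.447 to 6.42 CPM in WT-titled libraries, without overlap. All 10 B cell, 9 of 10 dendritic cell, all 9 macrophage and monocyte and 6 of 10 neutrophil and mast cell markers passed the filter, and none was at 0 in every library. Their part in the results on mitoribosomal genes was not tested, and in sorted bulk samples fewer cells of a type cannot be told apart from less RNA per cell.

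A few stretches of promoter show the sequence features found beside these genes. They are the 150 bases before the RefSeq start site on GRCm38.p6, 5′ to 3′ on the strand of the gene, and are shown because Mrps22 and Mrpl50 had the smallest p of all members between titled genotypes in males, and Mrpl17 was 1 of 2 members, with Mrpl34, whose titled sexes did not overlap in either genotype. Capitals mark matches to the motifs searched. The Mrps22 stretch is chr9:98601680-98601829 (minus strand), that of Mrpl50 is chr4:49521084-49521233 (minus strand), and that of Mrpl17 is chr7:105811088-105811237 (minus strand).
Mrps22: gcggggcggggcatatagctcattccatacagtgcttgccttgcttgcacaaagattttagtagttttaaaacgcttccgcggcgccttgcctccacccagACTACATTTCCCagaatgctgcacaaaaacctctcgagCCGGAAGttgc
Mrpl50: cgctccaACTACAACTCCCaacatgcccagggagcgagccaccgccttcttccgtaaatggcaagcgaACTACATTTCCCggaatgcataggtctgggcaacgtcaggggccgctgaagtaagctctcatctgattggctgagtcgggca
Mrpl17: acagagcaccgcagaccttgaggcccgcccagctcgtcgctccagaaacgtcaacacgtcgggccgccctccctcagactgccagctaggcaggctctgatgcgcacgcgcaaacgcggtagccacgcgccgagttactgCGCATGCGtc
Mrps22 held ACTACA, any 2 bases and TCCC, as in sites of ZNF143, and CCGGAAG, the core of sites of the ETS family of transcription factors. Mrpl50 held the ZNF143 type of motif in 2 places, and Mrpl17 held CGCATGCG, the core of sites of NRF1, an activator of nuclear genes for mitochondria. An ETS match of Mrpl17 lay outside the bases shown.

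Across the promoters of members, ETS and YY1 motifs were frequent. RefSeq promoters (250 bases before to 50 after the start) were matched for 67 of 76 members, and motifs were searched on both strands. CCGGAAG stood in 23 of 67 (34.3%), against 18.0% of 9408 tested genes with a promoter and 9.12% of all 27025 promoters. AAGATGGC, the core of YY1 sites, stood in 12 (17.9%, against 4.51% and 2.88%), and CGCATGCG in 7 (10.4%, against 3.86% and 1.91%). The ZNF143 type of motif, chosen after these sequences were seen, stood in 5 members, namely Mrps22, Mrpl50, Mrpl24, Mrpl34 and Mrpl42 (7.46%, against 4.44% and 1.98%). CACGTG, the E-box bound by MYC among others, stood in 5 (7.46%, against 10.2% and 7.24%). An estrogen response element (GGTCA, any 3 bases, TGACC) stood in 0 of 67 members and in 0.0666% of all promoters. It stood in 0 of the 9408 tested genes with a promoter, so its absence does not set members apart. No motif in this set contains another, and a match shows only that the letters are there. Members with and without the ETS motif had similar median log2 fold changes of KO minus WT, at 0.06 for 23 members and 0.01 for 43.

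Nearly all members were expressed at moderate levels, with mean CPM from 13.8 for Mrps17 to 96.5 for Mrpl18 among the 75 tested. Divided by the length of all annotated exons (GENCODE M21), the median level was 19.9 CPM per kb. The highest were Mrpl18 (69.0 ± 7.10 CPM per kb, SD, n = 12), Mrpl41 (56.9 ± 11.7), Mrps21 (49.3 ± 8.56), Mrpl28 (48.9 ± 6.46) and Mrpl54 (47.9 ± 10.8). The step from Mrpl18 to Mrpl41 was larger than the SD of either, and the later steps among these 5 were smaller than their SD. The lowest tested members were Mrps17 (2.12 ± 0.36), Mrpl48 (2.91 ± 0.53), Mrps25 (3.14 ± 0.70) and Mrpl47 (3.16 ± 0.45). The order depended on the length used. Per kb of coding sequence Mrpl18 had rank 3 (179 CPM per kb), Mrpl41 rank 9 (125) and Mrpl28 rank 23 (87.5), whereas Mrpl17 went from rank 59 to rank 7 (125 CPM per kb).

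**Figure D1:**
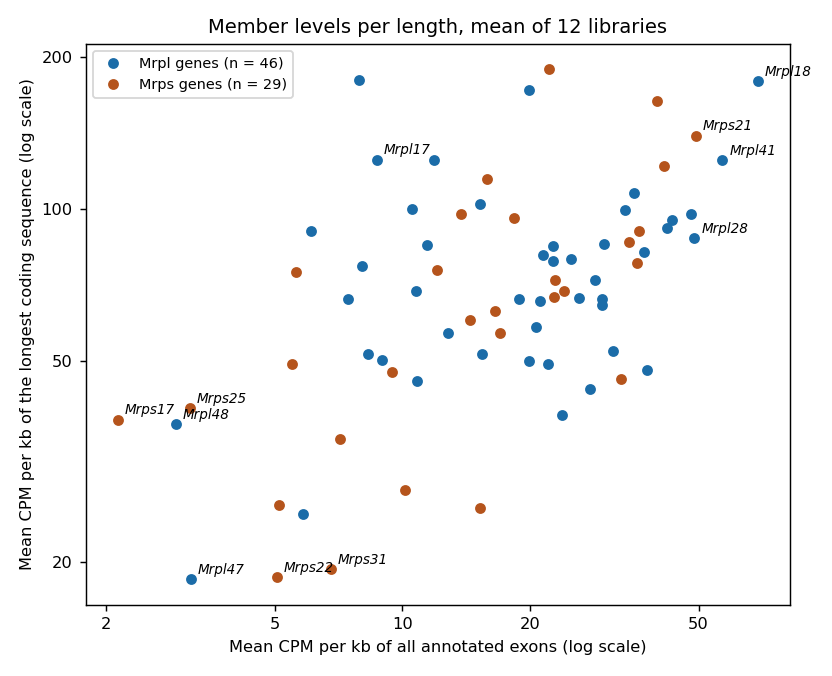
Mean level of each of the 75 tested members over 12 libraries, per kb of all annotated exons (x axis, log scale) and per kb of the longest coding sequence (y axis, log scale), with Mrpl and Mrps genes in separate colours. Mrpl18 is high on both axes, at 69.0 and 179 CPM per kb, while Mrpl17 is low on the first (8.69) and high on the second (125).

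Some members stand apart by what is known of them or by how they were counted. Mrps18a, Mrps18b and Mrps18c are 3 relatives of 1 bacterial protein, and averaged 44.4 ± 5.97, 21.1 ± 2.97 and 36.9 ± 6.54 CPM (SD, n = 12). Mrps18a and Mrps30 sit in the large subunit despite their names, and Mrps36 (18.4 ± 4.08 CPM) is known as a subunit of the 2-oxoglutarate dehydrogenase complex of the citric acid cycle. None of these 5 passed edgeR's test in any comparison below. Mrps36 was 23.5, 20.5 and 20.6 CPM in WT male 1, 2 and 3 and 15.8, 17.9 and 18.6 CPM in WT female 1, 2 and 3, and in KO libraries KO male 1 stood above the rest at 27.6 CPM, with 13.4 to 16.9 CPM in the other 5. Mrpl36 had 0 to 9 counts per library, a mean of 0.18 CPM. Its largest value, 0.53 CPM in WT male 1, and its 0 counts in KO male 3 and KO female 2 are too few to compare. The kits do not mark strand, and 32 of 76 members share exon sequence with another annotated gene, 10 of them over more than 20% of their exon length. The largest shares were 88.0% for Mrpl53, 77.8% for Mrps34 and 69.8% for Mrps25, and 11 members have a near-identical copy in a gene that does not overlap them, so values of those genes are uncertain.

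The members varied in level from library to library, within titled groups as well as between them. Their summed level was 4004, 3823 and 3094 CPM in WT male 1, 2 and 3 and 2949, 3142 and 2902 CPM in WT female 1, 2 and 3. It was 3699, 3518 and 2940 CPM in KO male 1, 2 and 3 and 3335, 3226 and 3320 CPM in KO female 1, 2 and 3. The 4 highest libraries were thus WT male 1 and 2 and KO male 1 and 2, and WT male 3 and KO male 3 were among the 4 lowest of all 12. Group means were 3641 ± 482 CPM in WT males, 2998 ± 127 in WT females, 3386 ± 396 in KO males and 3294 ± 58.9 in KO females (SD, n = 3). Over both sexes the 6 KO-titled libraries averaged 3340 ± 258 and the 6 WT-titled 3319 ± 473 CPM, a difference far below the spread.

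The shift of single libraries ran through most of the members. In WT male 1, 74 of 75 members lay above their own mean over the 12 libraries on the log2 scale, and in WT male 2 it was 65. In WT female 1 and WT female 3 only 8 lay above it, in WT male 3 17, in KO male 3 20 and in WT female 2 21. Of all genes tested, between 49.9% and 54.7% lay above their mean in every library. The sum of Mrpl over Mrps genes hardly moved, with a ratio of 1.84 ± 0.04 (SD, n = 12) and a range of 1.74 in KO female 2 to 1.89 in WT male 3.

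Cytosolic ribosomal protein genes and nuclear respiratory chain genes followed a similar order. WT male 1, KO male 1, WT male 2 and KO male 2 were also the 4 highest in the sum of 81 cytosolic ribosomal protein genes, from 16745 CPM in KO male 2 to 19899 CPM in KO male 1. The lowest were WT female 1 (11270 CPM) and WT female 3 (12102 CPM). For 82 respiratory chain genes WT male 1 (11238 CPM) and KO male 2 (10864 CPM) were highest and KO male 3 lowest (7222 CPM), while KO male 1, with rank 3 in mitoribosomal genes, had rank 7 (9092 CPM). These lists share libraries and scaling. WT male 1 had rank 1 both in depth and in the sum of members, and KO male 3 had ranks 12 and 11. WT male 3 had rank 2 in depth and rank 9 in the sum of members. Summed cell cycle genes were 944 CPM in KO male 1 and 1797 CPM in KO male 2, both among the 4 highest for members. The part of depth or of the cell cycle in the order of libraries was not tested.

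**Figure D2:**
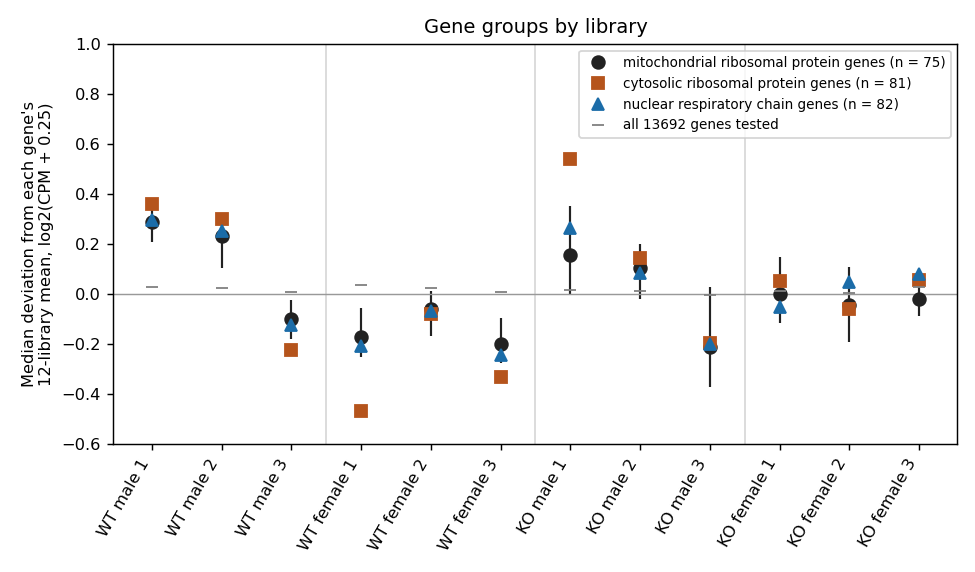
Median deviation of each gene group from its genes' means over the 12 libraries, in log2(CPM + 0.25), by library, with bars for the middle 50% of mitoribosomal members. The members' median runs from 0.29 in WT male 1 to -0.21 in KO male 3, in most libraries with the sign of the other 2 lists, while the median of all 13692 genes stays within 0.04 of 0.

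Single members differed in how much they varied. The SD of log2 CPM over the 12 libraries ran from 0.13 for Mrpl4 to 0.44 for Mrpl9, with a median of 0.24. Mrpl4, a protein near the exit tunnel in bacterial ribosomes, stayed between 78.3 and 98.9 CPM. The other members of small SD were Mrps9, Mrpl3, Mrps31 and Mrpl18, at 0.15 each.

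Mrpl9, the most variable member, was 50.1, 56.0 and 29.1 CPM in WT male 1, 2 and 3 and 37.2, 37.6 and 38.4 CPM in WT female 1, 2 and 3. It was 42.1, 51.4 and 25.3 CPM in KO male 1, 2 and 3 and 52.0, 23.2 and 56.5 CPM in KO female 1, 2 and 3. KO female 2 and KO male 3 were lowest, WT females were nearly level, and the groups overlapped throughout. Mrpl49 was likewise lowest in KO male 3, at 17.4 CPM against 34.6 to 56.7 CPM in the other 11 libraries.

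Mrpl52 had a different pattern, at 57.2, 32.3 and 46.4 CPM in KO male 1, 2 and 3 and 30.0, 47.9 and 30.4 CPM in KO female 1, 2 and 3. Here KO male 1, KO male 3 and KO female 2 were high. Mrpl20 and Mrpl12 completed the 5 members of largest SD, at 0.38 and 0.36. Among the 6 KO-titled libraries, KO male 3 and KO female 2 were the lowest pair for 24 of 75 members (32.0%), against 11.6% of all genes tested, and the highest pair for Mrps34 alone (1.33%, against 11.3%). KO male 1 and KO female 2 were the highest pair for 20 members (26.7%, against 11.1%), so KO female 2 was not low throughout. These pairs were picked out after their values were seen. The 24 with KO male 3 and KO female 2 lowest include Mrpl1, Mrpl9, Mrpl20, Mrpl49, Mrps6 and Mrps25.

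**Figure D3:**
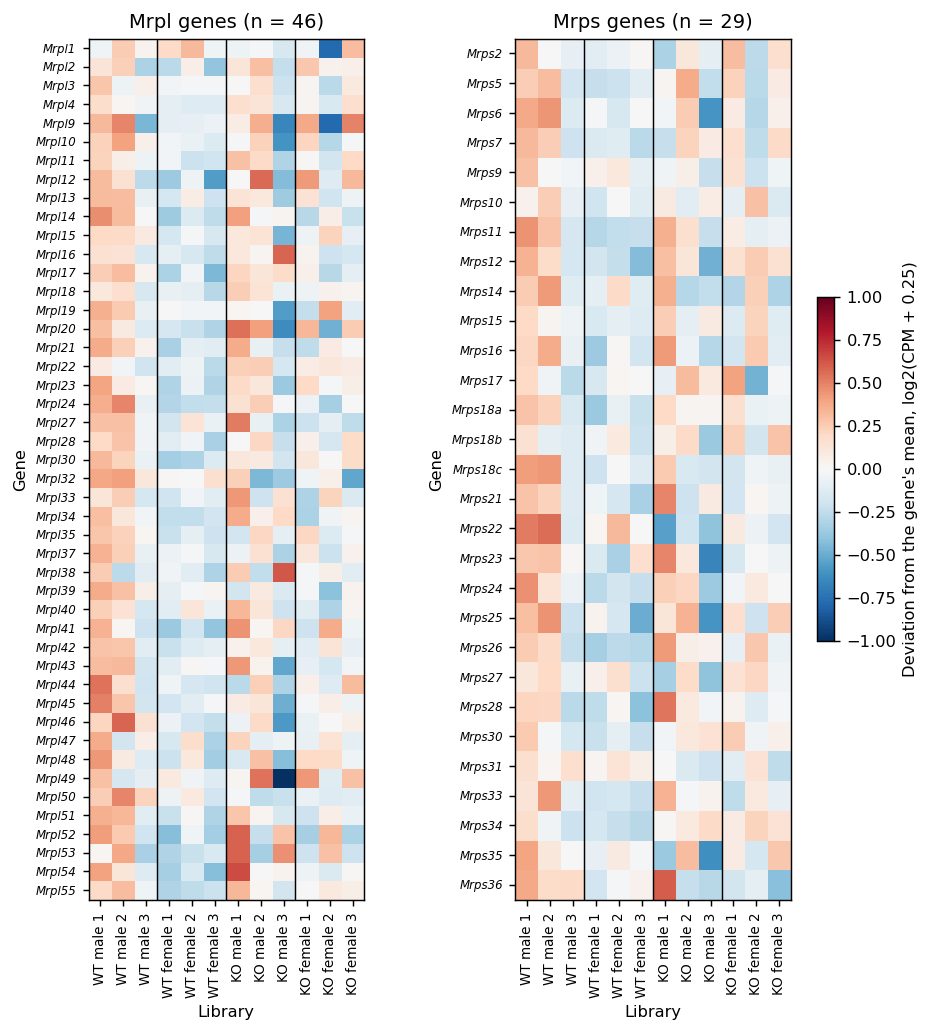
Deviation of each tested member from its own mean over the 12 libraries, in log2(CPM + 0.25), with 46 Mrpl genes on the left and 29 Mrps genes on the right and libraries in columns by titled group. The WT male 1 and WT male 2 columns are red for nearly all members (74 and 65 of 75 above their mean), and the darkest blue cells include Mrpl49 in KO male 3 and Mrpl1 and Mrpl9 in KO female 2.

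The average KO minus WT difference over both sexes was small in mitoribosomal genes. The median log2 fold change of the 75 members was 0.03, with 43 positive, against 0.02 for all genes tested. It was 0.01 for 46 Mrpl and 0.05 for 29 Mrps genes. Members with a bacterial counterpart had a median of 0.06 over 45 genes and those specific to mitochondria -0.02 over 30. Single members ran from -0.45 for Mrps22 to 0.28 for Mrpl12.

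No member passed edgeR's quasi-likelihood test at an adjusted p of 0.05, where 1.5% of all genes did. None passed with DESeq2 or limma voom, which called 644 and 597 of all 13692 genes. At an unadjusted p under 0.05 there were 4 members (3 lower, 1 higher), or 4 of 75 against a background of 15.9%. No member separated the 6 KO-titled from the 6 WT-titled libraries, where 2.4% of all genes did. The sign of the median rested on single libraries: it was -0.03 without WT male 3 and -0.11 without the 4 libraries opposite to their titled sex. The last value leaves KO male 3 as the only KO male (n = 1) and 2 libraries each of WT and KO females. The lone library is assumed to vary like the other groups. Of the libraries left, those titled KO had Esr2 at 8.05 to 11.7 CPM. Among those titled WT only WT female 3, at 12.3 CPM, was above 0.895 CPM.

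Mrps22, a protein of the small subunit specific to mitochondria, had the smallest p. It was 28.3, 29.0 and 17.8 CPM in WT male 1, 2 and 3 and 19.9, 24.7 and 19.7 CPM in WT female 1, 2 and 3. It was 13.4, 17.1 and 14.8 CPM in KO male 1, 2 and 3 and 20.9, 18.8 and 17.1 CPM in KO female 1, 2 and 3. All KO male libraries lay below every WT library, whereas KO females overlapped with WT. The log2 fold change was -0.45 (SE 0.16, edgeR adjusted p = 0.178), with means of 17 ± 2.71 in KO and 23.2 ± 4.79 CPM in WT (SD, n = 6).

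Mrpl32, Mrpl50, Mrpl39 and Mrps31 had the next smallest p among members with lower KO values. Mrpl32, whose maturation by a protease of the inner membrane is a known step of ribosome assembly, was 43.1, 26.7 and 28.2 CPM in KO male 1, 2 and 3 and 35.3, 37.7 and 25.3 CPM in KO female 1, 2 and 3, against 36.3 to 48.5 CPM in WT. KO male 2, KO male 3 and KO female 3 were lowest, KO female 1 lay just below the WT range, and KO male 1 and KO female 2 lay within it (log2 fold change -0.34, SE 0.15, adjusted p = 0.284). Mrpl50, specific to mitochondria, had a log2 fold change of -0.27 (adjusted p = 0.289), Mrpl39 of -0.20 (0.435) and Mrps31 of -0.19 (0.518).

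Among members with higher KO values, Mrps34, Mrpl41, Mrps26, Mrpl22 and Mrpl12 had the smallest p. Mrps34, a protein of the small subunit specific to mitochondria, was 47.3, 50.3 and 53.7 CPM in KO male 1, 2 and 3 and 49.7, 54.7 and 52.0 CPM in KO female 1, 2 and 3. In WT it was 52.9, 45.9 and 40.3 CPM in males and 41.6, 40.0 and 38.5 CPM in females. All 6 KO libraries lay above all WT libraries but WT male 1 (log2 fold change 0.25, SE 0.11, adjusted p = 0.271), and 77.8% of its exon length is shared with Mapk8ip3 and Nme3. Mrpl41 had 0.27 (adjusted p = 0.364), Mrps26 0.22 (0.411), Mrpl22 0.20 (0.491) and Mrpl12, part of the stalk that recruits translation factors, 0.28 (0.49).

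Mrpl12 varied widely within groups. It was 53.0, 47.3 and 35.4 CPM in WT male 1, 2 and 3 and 32.9, 41.1 and 28.7 CPM in WT female 1, 2 and 3. It was 42.7, 63.0 and 31.4 CPM in KO male 1, 2 and 3 and 57.0, 38.7 and 53.3 CPM in KO female 1, 2 and 3. KO male 2 and KO female 1 were highest and WT female 3 lowest, and every pair of groups overlapped.

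In males, members tended to lower values in KO-titled libraries, and none passed. The median log2 fold change was -0.12 with 22 of 75 positive, against 0.01 for all genes. It was -0.13 for Mrpl and -0.12 for Mrps genes, and -0.11 for members with a bacterial counterpart and -0.14 for those specific to mitochondria. The respiratory chain list had -0.11 and the cytosolic ribosomal list 0.01.

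With edgeR 0 members passed against 0.073% of all genes, and at an unadjusted p under 0.05 4 members were lower and 0 higher, against a background of 14.2%. DESeq2 called 0 members and 420 of all 13692 genes, and limma voom called 0 members and 0 genes. Mrps22, Mrpl50 and Mrps31 were lower in all 3 KO than in all 3 WT male libraries, 3 of 75, and 0 members were higher. Of all 13692 genes, 1020 were lower and 952 higher, 14.4% in either direction. The median was -0.01 without KO male 3 and -0.22 without WT male 3. It was -0.39 without the 4 libraries opposite to their titled sex, where KO male 3 alone (n = 1) stands for KO males. Esr2 was at 9.22 CPM in KO male 3 and at most 0.895 CPM in WT male 1, 2 and 3, opposite to the titled genotypes. Within males the marker sums of B cells, dendritic cells, macrophages and monocytes, and neutrophils and mast cells did not overlap between titles. Neither did that of stromal and endothelial cells, at 128, 135 and 190 CPM in KO and 89.7, 89.9 and 107 CPM in WT. The sums of plasma cells, of CD8 and NK cells, of erythroid cells and platelets and of epithelial cells overlapped. B cell markers were 268, 183 and 343 CPM in KO male 1, 2 and 3 and 70.5, 52.7 and 47.5 CPM in WT male 1, 2 and 3. Dendritic cell markers were at least 715 CPM in KO and at most 295 CPM in WT males, and macrophage and monocyte markers at least 152 and at most 50.5 CPM. The part of these other cells in the lower values of members was not tested.

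Mrps22 had a log2 fold change of -0.73 in males (SE 0.23, adjusted p = 0.178), from 25 ± 6.30 in WT to 15.1 ± 1.85 CPM in KO (SD, n = 3). Mrpl50 was 31.9, 37.6 and 31.3 CPM in WT male 1, 2 and 3 and 26.4, 22.5 and 22.9 CPM in KO male 1, 2 and 3, without overlap (-0.49, SE 0.17, adjusted p = 0.225). Mrpl46, a large subunit protein specific to mitochondria, had -0.45 (SE 0.20, adjusted p = 0.323), with 49.7 CPM in KO male 2 above WT male 3 at 48.4 CPM. Among members with higher KO values the smallest p belonged to Mrpl16 (0.20), Mrpl38 (0.27) and Mrpl53 (0.24), with adjusted p of 0.661, 0.582 and 0.726. For Mrpl16 and Mrpl38 KO male 3 was above the rest, at 50.9 and 85.1 CPM, against at most 37.7 and 66.1 CPM in the other 11 libraries.

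In females, members tended to higher values in KO-titled libraries. The median log2 fold change was 0.14 with 62 of 75 positive, against 0.01 for all genes. It was 0.14 for Mrpl and 0.13 for Mrps genes. The cytosolic ribosomal list had 0.31 with 80 of 81 positive, and the respiratory chain list 0.19 with 73 of 82 positive. Of the marker sums that did not overlap in males, only that of neutrophils and mast cells did not overlap between the titles in females. It was 10.3, 20.2 and 55.5 CPM in KO and 6.42, 1.78 and 3.72 CPM in WT, and its part was not tested.

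No member passed with edgeR, and neither did any other gene (0.0% of 13692). At an unadjusted p under 0.05 3 members were higher and 0 lower, against 7.71% of all genes in either direction and 2.94% higher. In 13 of 75 members all 3 KO female libraries lay above all 3 WT female libraries, and in 0 below. Of all 13692 genes, 1260 lay above and 1609 below, 21.0% in either direction. The 13 members were Mrpl18, Mrpl22, Mrpl23, Mrpl30, Mrpl54, Mrpl55, Mrps11, Mrps12, Mrps18a, Mrps24, Mrps26, Mrps30 and Mrps34. The 3 WT female libraries, whose summed level was the lowest of the 4 groups, enter both this comparison and that of the WT sexes.

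Limma voom with quality weights, which lowers the weight of libraries that stray, called 5 members in females, where it called 12.4% of all genes. They were Mrpl12 (log2 fold change 0.67, adjusted p = 0.00873), Mrpl30 (0.42, 0.0209), Mrps12 (0.42, 0.0415), Mrps34 (0.33, 0.0433) and Mrps30 (0.34, 0.0444). These values are on limma's scale. DESeq2 called 0 members here and 22 of all 13692 genes. The other edgeR settings also called 0 members. They called 0 genes, except 132 of 24584 with no filter and 2 of 14340 without WT female 3.

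Mrps12, the counterpart of the bacterial protein at the decoding site, was 32.5, 31.3 and 27.4 CPM in WT female 1, 2 and 3 and 41.2, 44.1 and 41.2 CPM in KO female 1, 2 and 3. The groups did not overlap (edgeR 0.47, SE 0.21, adjusted p = 0.64), but WT male 1 and KO male 1 were higher still, at 47.3 and 45.6 CPM. Mrpl30 was 38.4, 39.1 and 44.2 CPM in WT females and 52.5, 48.6 and 55.2 CPM in KO females (0.36, SE 0.16, adjusted p = 0.64). It has near-identical copies in Gm11945 and Gm6238, so its values are uncertain. Mrps34 had 0.38 (SE 0.15, adjusted p = 0.595). Among members with lower KO values in females, the smallest p belonged to Mrpl1 (-0.27), Mrpl32 (-0.21) and Mrps31 (-0.14), with adjusted p of 0.833, 0.861 and 0.892. Mrpl1, the protein of a mobile stalk of the large subunit, was 14.3 CPM in KO female 2 and at least 22.0 CPM in each of the other 11 libraries.

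**Figure D4:**
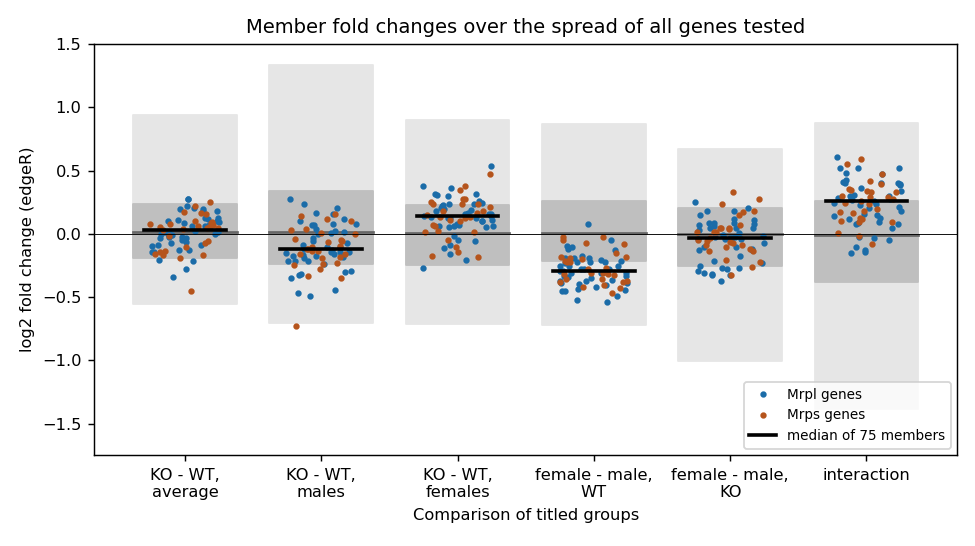
Log2 fold change of each tested member (points, Mrpl and Mrps genes in separate colours) in the 6 comparisons, with the members' median as a black line, over the range of all 13692 genes tested (dark grey for the middle 50%, light grey from the 5th to the 95th percentile). The members' median is -0.29 for female minus male in WT, with 74 of 75 points below 0, and 0.03 for the average KO minus WT difference.

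Between the titled sexes in WT, nearly all members were lower in females. The median log2 fold change was -0.29 against 0.01 for all genes, and 74 of 75 members were negative. Mrpl1 was the exception at 0.08. The median was -0.29 for Mrpl, -0.28 for Mrps, -0.29 for members with a bacterial counterpart and -0.29 for those specific to mitochondria. Over the 37 tested members with neither shared exons nor copies it was -0.28. Cytosolic ribosomal protein genes had -0.46 with 0 of 81 positive, and respiratory chain genes -0.34 with 2 of 82 positive.

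No single member passed with edgeR (0.0% of all genes did), and adjusted p of the members were 0.718 or more. At an unadjusted p under 0.05 13 members were lower and 0 higher, or 13 of 75 against 6.52% of all genes in either direction and 2.48% lower. In 25 of 75 members all 3 WT female libraries lay below all 3 WT male libraries, and in 0 above. Of all 13692 genes, 1113 lay below and 1034 above, 15.7% in either direction. The 25 were Mrpl4, Mrpl10, Mrpl14, Mrpl15, Mrpl17, Mrpl20, Mrpl21, Mrpl23, Mrpl24, Mrpl28, Mrpl30, Mrpl34, Mrpl35, Mrpl39, Mrpl46, Mrpl50, Mrpl54, Mrpl55, Mrps11, Mrps12, Mrps15, Mrps24, Mrps26, Mrps33 and Mrps36. Limma voom with quality weights called Mrpl24 (-0.63, adjusted p = 0.0318) and Mrpl46 (-0.56, adjusted p = 0.048), where it called 2.54% of all genes. DESeq2 called 0 members and 30 of all 13692 genes. The size of the difference varied with the libraries used. The median was -0.21 without WT male 1 and -0.41 without WT male 3. It was -0.32 without the 4 libraries opposite to their titled sex, which leaves 2 WT females. Marker sums of other cells also differed between these libraries. Macrophage and monocyte markers were 50.5, 40.5 and 21.2 CPM in WT male 1, 2 and 3 and 307, 281 and 39.9 CPM in WT female 1, 2 and 3. Dendritic cell markers were 295, 271 and 254 CPM in the males and 814, 617 and 259 CPM in the females. WT female 1 and WT female 2 were thus above the males in both, and WT female 3 was within their range. The summed level of members was 2949, 3142 and 2902 CPM in WT female 1, 2 and 3. Esr2 was at most 0.895 CPM in WT male 1, 2 and 3 and 0, 8.79 and 12.3 CPM in WT female 1, 2 and 3. WT female 2 also carried Y-linked counts. The part of other cells and of Esr2 in the result on the titled sexes was not tested.

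Mrpl24, the counterpart of a bacterial protein that starts assembly of the large subunit, was 64.9, 70.6 and 47.8 CPM in WT male 1, 2 and 3 and 41.1, 42.4 and 42.6 CPM in WT female 1, 2 and 3. The WT females were close together, and WT male 3 was nearer to them than to the other males (-0.54, SE 0.17, adjusted p = 0.718). Mrpl24 shares 26.3% of its exon length with Rrnad1. Mrpl17 was 77.5, 80.7 and 66.9 CPM in WT males and 52.4, 64.2 and 47.7 CPM in WT females (-0.45, SE 0.16, adjusted p = 0.718). Here WT female 2, which carries Y-linked counts, was the highest of the females and WT male 3 the lowest of the males. Mrpl30 had -0.43 (SE 0.16, adjusted p = 0.718).

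**Figure D5:**
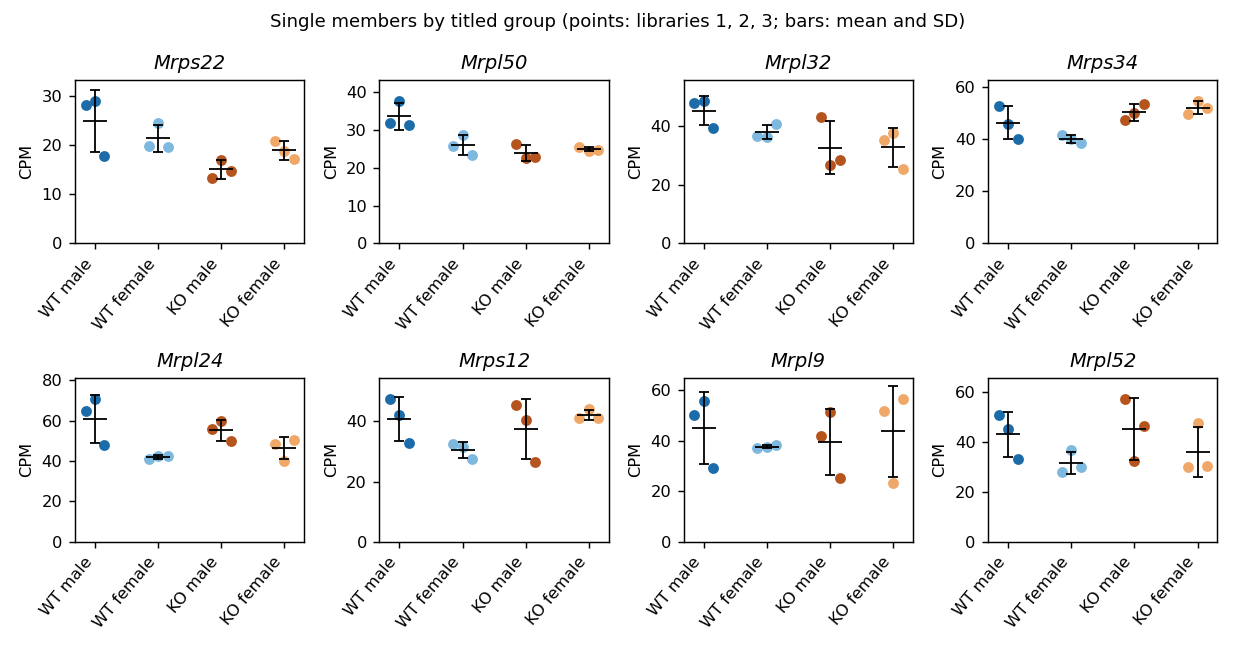
CPM of 8 members by titled group, with 1 point per library in the order 1, 2, 3 and the mean and SD of each group (n = 3). Mrps22 and Mrpl50 are lower in all KO male than in all WT male libraries, Mrps34 is at 47.3 CPM or more in all 6 KO libraries, Mrpl24 and Mrps12 are lower in WT females than in WT males, and Mrpl9 and Mrpl52 spread widely within the KO groups.

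Between the titled sexes in KO, members showed no common direction. The median log2 fold change was -0.03 with 32 of 75 positive, against 0.00 for all genes. With edgeR 0 members passed (0.0% of all genes did), and 0 had an unadjusted p under 0.05, where 5.27% of all genes did. DESeq2 and limma voom called 0 members and 0 of all genes. Mrps22 was higher in all KO female than in all KO male libraries (0.33, SE 0.23, adjusted p = 0.849), and Mrpl17 (-0.27) and Mrpl34 (-0.32) were lower in all, 3 of 75 members where 7.0% of all genes did not overlap. Mrpl17 was 75.6, 71.0 and 74.1 CPM in KO males and 67.7, 53.8 and 61.3 CPM in KO females. By smallest p, Mrpl16 had -0.37 (adjusted p = 0.849), Mrps27 0.27 and Mrps35 0.24. The median changed sign without KO male 1 (0.05) and without the 4 libraries opposite to their titled sex (0.18, with KO male 3 as the only KO male, n = 1).

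The interaction, the KO minus WT difference in females less that in males, was positive in 66 of 75 members. Its median was 0.26 against -0.01 for all genes, and 0.32 and 0.33 for the cytosolic ribosomal and respiratory chain lists. No member passed with edgeR (0.0% of all genes did), DESeq2 (3 of 13692 genes) or voom (0 genes). At an unadjusted p under 0.05 in edgeR 2 members were higher and 0 lower, against 4.81% of all genes. These 2 were Mrpl30 (0.52, SE 0.23) and Mrpl46 (0.60, SE 0.28), both with an adjusted p of 0.9, and Mrps12 followed with 0.59. The negative members of smallest p were Mrpl16 (-0.15), Mrpl38 (-0.15) and Mrpl40 (-0.13). Single libraries moved the median from 0.17 without KO male 3 to 0.35 without WT male 3. It was 0.49 without the 4 libraries opposite to their titled sex, again with 1 KO male library, KO male 3. Esr2 was at 9.22 CPM in that library and at most 0.895 CPM in WT male 1, 2 and 3.

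Mitoribosomal proteins with other symbols had small differences too. All 6 were tested and none passed in any comparison. Dap3, a GTP-binding protein of the small subunit first described in cell death, averaged 121 ± 19.3 in KO and 122 ± 14.0 CPM in WT (SD, n = 6). For the average KO minus WT difference the smallest p belonged to Ptcd3 (log2 fold change -0.17, adjusted p = 0.471) and Gadd45gip1 (0.22, 0.508). For female minus male in WT the list had a median of -0.20.

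Genes that act with the mitoribosome mostly did not pass. Of 14 translation factors, 24 genes of assembly and rRNA modification, 20 aminoacyl-tRNA synthetases and 14 genes of mitochondrial DNA and RNA synthesis and processing, none passed in any comparison with edgeR. The values that follow are log2 fold changes of the average KO minus WT difference, with adjusted p. Mtrf1, a release factor, had -0.64 (adjusted p = 0.262) and Mtif2, an initiation factor, -0.28 (0.333). Mettl17 and Nsun4, which act in assembly, had 0.33 and -0.29 (0.221 and 0.259). The synthetase gene Lars2 had 0.48 (0.148) and Sars2 0.40 (0.198), and Mtpap, the mitochondrial poly(A) polymerase, -0.37 (0.145).

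Of 10 regulators of mitochondrial gene sets, Gabpa fell and the others did not pass. Gabpa encodes the DNA-binding subunit of GABP, a factor of the ETS family that activates nuclear genes for mitochondria. It was 70.7, 69.2 and 93.1 CPM in WT male 1, 2 and 3 and 93.4, 91.8 and 109 CPM in WT female 1, 2 and 3. It was 48.4, 57.1 and 46.1 CPM in KO male 1, 2 and 3 and 62.4, 68.9 and 63.9 CPM in KO female 1, 2 and 3. All 6 KO-titled libraries lay below all 6 WT-titled libraries, with the smallest gap between KO female 2 and WT male 2. Neutrophil and mast cell markers separated the same libraries, and their part in the result on Gabpa was not tested. The log2 fold change was -0.61 (SE 0.12, edgeR adjusted p = 0.0247), with means of 57.8 ± 9.01 and 87.9 ± 15.3 CPM (SD, n = 6). The call was lost in 10 of 21 alternatives, among them leaving out WT male 3, any of the WT female libraries, KO male 3, KO female 1 or KO female 3, with adjusted p between 0.051 and 0.0886. Gabpb1, its partner subunit, had -0.32 (adjusted p = 0.21) and Yy1 -0.35 (0.529). The 23 members with an ETS motif had medians of 0.06 for this comparison, -0.05 in males and 0.13 in females, against 0.01, -0.15 and 0.15 for the 43 without it. For female minus male they had -0.32 in WT and -0.12 in KO, against -0.31 and 0.02. For the interaction they had 0.17 against 0.29. The part of the motif in these values was not tested.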

How the data were processed

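RNA was isolated with NucleoSpin XS, cDNA by SMART-Seq v4 and sequencing libraries by Nextera XT, per the labels' protocols. The authors deposited raw counts per gene symbol for 12 libraries and log2 values, which edgeR's CPM with a prior count of 0.25 matched to within 5e-14. The submitters' processing notes name edgeR, HISAT2 2.0.5, Subread with featureCounts 1.5.0-p2, and GRCm38. An annotation release and a strand setting for the counting are not given in the sources used.

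Groups are those of the titles. Genes were filtered with filterByExpr (at least 99.8% of counts kept), scaled by TMM and fitted with edgeR 4.0.16 (R 4.3.3, robust quasi-likelihood F test, 4 group means, two-sided), with Benjamini-Hochberg adjustment over 13692 genes and a threshold of 0.05. The steps were tested on simulated counts. Fold changes are log2, and SE were derived from the F statistic. Alternatives used limma 3.58.1, DESeq2 1.42.0, other scaling, no filter and left-out libraries. Lengths, positions and shared exons came from GENCODE M21, copies from blastn (BLAST 2.17.0, at least 95% identity over 50% of the transcript). The members, lists and naming rule were chosen with earlier results of these data known. The rule named Mrps18a, Mrps18b, Mrps18c, Mrps36 and Mrpl12, the 5 members of smallest p in each direction for the average and 3 for other comparisons, and the 5 at each end of level per length and of SD.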

Additional observations from a re-analysis of the deposited data

How the results depend on the processing

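Each count of members past the threshold was recomputed under up to 22 alternatives. Upper quartile scaling, library totals only, no filter and the title number as a replicate block were used. Each library was left out in turn, as were the 4 libraries opposite to their titled sex. The 2 WT male libraries titled 2 were summed. Comparisons of 2 groups were also fitted with only the groups compared. Limma voom with quality weights, limma on the deposited log2 values and DESeq2 completed the list. Counts stayed at 0 of 75 apart from limma voom, which gave 5 for KO minus WT in females and 2 for female minus male in WT. Leaving out each library in turn gave 0 in every comparison. Over all genes these fits called 12 to 543 for the average KO minus WT difference and 0 to 734 in males. Between the sexes they called 0 to 38 in WT and 0 to 324 in KO. They called 0 to 2 genes for KO minus WT in females and 0 to 4 for the interaction. A 0 among members says little where few or no genes passed. With the title number as a replicate block the count was 0 in all 6 comparisons. There 9 of all 13692 genes passed for the average difference and 0 in each other comparison. Over 9 pairs of libraries that share a title number, correlations of deviations from the group mean ran from -0.27 to -0.01. WT males were left out of this check, and pairs with different numbers were not compared. It therefore cannot settle whether the numbers pair the libraries. No scaling alternative moved the median of all genes by more than 0.1. Of 39 single-gene fold changes, 35 kept their sign under all alternatives run and 4 did not, counting Gabpa among the 35. Levels per kb of all 43 named members were higher with coding length in place of exon length. This was fixed in advance, since the coding length of each is the shorter. The median SE of members was 0.14 on the average and 0.20 within a sex, and the part that depth has in it was not tested.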
